A study of Mus musculus with 12 samples.

Results

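Transcripts of 10 genes of the integrated stress response were followed across hippocampal RNA from mice of 4 genotypes. The genes were Atf4, Ddit3, Atf3, Trib3, Chac1, Asns, Ppp1r15a, Sesn2, Ddit4 and Xbp1, chosen by symbol among 54427 genes listed, and all 10 were found. The 4 groups had 3 libraries each and were named in the labels as WT (wild type), 5xFAD, Ulk1OV and 5xFAD;Ulk1OV. 5xFAD is a transgenic line that forms amyloid plaques, with its transgenes driven in neurons by the Thy1 promoter. Ulk1OV stands in the labels for overexpressed ULK1, a kinase that initiates autophagy, and 5xFAD;Ulk1OV mice carry both modifications. The sources used here do not give the promoter or species of the Ulk1 construct, the number of founder lines or the age of any mouse. The values were read counts per gene from hippocampal tissue, given below as CPM, which are counts scaled to a common library size with edgeR's TMM factors.

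The integrated stress response begins when a kinase phosphorylates the translation factor eIF2. PERK (Eif2ak3) does so when proteins misfold in the endoplasmic reticulum, GCN2 (Eif2ak4) when amino acids are short, PKR (Eif2ak2) in the presence of double-stranded RNA, and HRI (Eif2ak1) when haem is low or mitochondria are disturbed. Bulk translation then falls, while the mRNA of Atf4 is translated more through short upstream reading frames, and the ATF4 protein switches on genes of amino acid supply, redox balance and cell death. ATF4 is therefore controlled largely at translation, and its mRNA is not a measure of its protein. In neurons ATF4 is also known for work on synaptic plasticity and memory.

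Short stretches of promoter are shown for 6 of the genes, because they hold the elements through which members of the family are known to be switched on, or, for Atf4 and Ddit4, because these are the genes on which the results turn. The sequences come from RefSeq on GRCm38.p6, in which all 10 genes matched a window from 250 bases before to 50 bases after the start, and each is written 5′ to 3′ on the strand of its gene. In Asns, Chac1 and Atf3 the capitals mark the composite element at which ATF4 binds with a C/EBP partner, which in Chac1 and Atf3 stands on the other strand, and in Ppp1r15a the cAMP response element.

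Asns: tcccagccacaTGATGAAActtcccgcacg

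Chac1: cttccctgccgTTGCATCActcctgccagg

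Atf3: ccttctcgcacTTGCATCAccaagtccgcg

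Ppp1r15a: cgcctctccggTGACGTCAgcac

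The stretches lie at chr6:7693214-7693243 on the minus strand (Asns), chr2:119351038-119351067 on the plus strand (Chac1), chr1:191183425-191183454 on the minus strand (Atf3) and chr7:45526269-45526291 on the minus strand (Ppp1r15a). In Atf4 and Ddit4 the capitals mark CCAAT boxes, which in the Ddit4 stretch read as ATTGG because they stand on the other strand.

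Atf4: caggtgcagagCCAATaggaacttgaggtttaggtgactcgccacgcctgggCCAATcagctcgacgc

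Ddit4: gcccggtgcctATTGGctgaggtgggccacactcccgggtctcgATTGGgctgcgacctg

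They lie at chr15:80255056-80255123 on the plus strand and chr10:59951892-59951951 on the minus strand. The composite element was searched as TGATGNAA on both strands and stood in 4 of the 10 windows, those of Asns, Atf3, Chac1 and Trib3 (in Trib3 after the start), against 3.97% of 32817 windows of the same length. TGACGTCA was found in 1 of the 10 (1.79% of all windows) and CCAAT, also on both strands, in 6 (37.39%). Neither Atf4 nor Ddit4 held TGATGNAA in this window. The ER stress element, which is CCAAT and CCACG with 9 bases between and so always includes a CCAAT match, stood in 0.12% of all windows and in 0 of the 10. The glucocorticoid response element, GNACA and TGTNC with 3 bases between, stood in 0.48% of all windows and in 0 of the 10. A match is a description of the letters only.

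Each library held 16149992 to 18547132 counts. Replicates differed by more than sampling noise (chi-square per degree of freedom 7.245 to 30.242), but nothing in the labels says that they came from separate animals. The p-values therefore reflect variation among these libraries only, and that variation may be technical. Ulk1 stood at 84.6 to 102 CPM in the 6 libraries with the Ulk1OV label and at 63.5 to 86.3 CPM in the other 6, so the ranges overlapped. One label did not match its data: App, the amyloid precursor gene, stood at 1310 CPM in the library labelled 5xFAD;Ulk1OV replicate 3, at 2201 to 2667 in the remaining 5xFAD-labelled libraries and at 1241 to 1493 in WT and Ulk1OV. Counts of called members that rest on that library are given with and without it, as are most calls in the lists. Counts of groups without overlap and the fits with an offset include it. The 8 markers of hippocampal neurons fixed for the check were all detected, with summed levels of 350.8 to 642.9 CPM.

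The 10 genes spanned a wide range of abundance when divided by exon length. The highest mean was that of Ddit4 (REDD1, an inhibitor of the growth kinase mTORC1) at 48.6 ± 14.0 CPM per kb (SD, n = 12), which did not differ beyond its spread from that of Atf4 at 45.9 ± 9.24. Asns, which makes asparagine, followed at 32.6 ± 2.77 CPM per kb, and Xbp1, the transcription factor that IRE1 activates by splicing, at 25.7 ± 3.88. Ddit3, which encodes the pro-death factor CHOP, stood at 11.2 ± 1.13 CPM per kb. Below it came Ppp1r15a (GADD34, the subunit that returns a phosphatase to eIF2) at 5.16 ± 0.563 CPM per kb and Sesn2 (sestrin 2, a leucine sensor) at 4.63 ± 0.618, and these neighbours did not differ beyond their spread. The lowest were Chac1, which breaks down glutathione, at 2.76 ± 0.789 CPM per kb, Atf3, a stress-induced repressor, at 1.09 ± 0.527, and Trib3, a pseudokinase that restrains ATF4, at 0.134 ± 0.0843. Chac1, Atf3 and Trib3 were the least abundant of the 10 by group mean in every group.

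**Figure D1:**
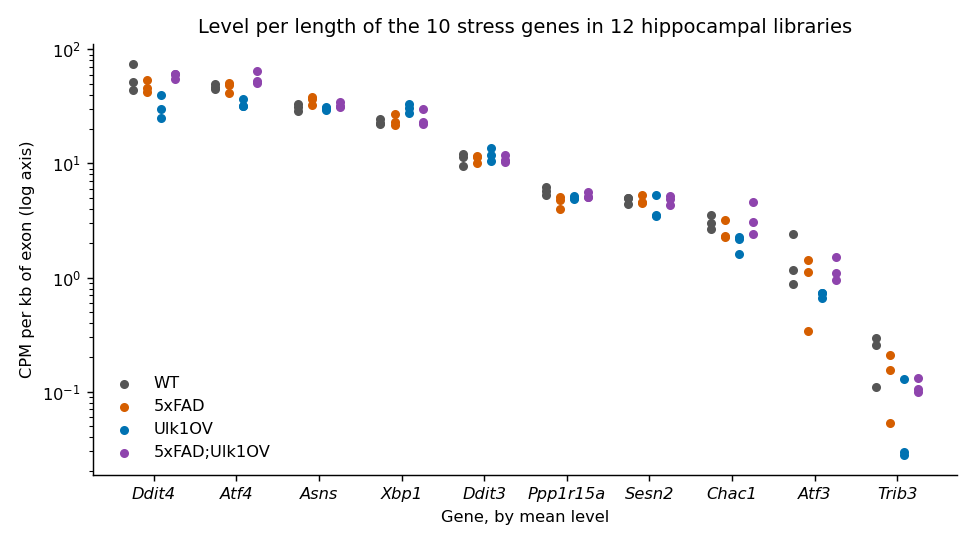
Level of each gene per kb of exon (CPM per kb, log axis) in 12 libraries, coloured by group, with genes ordered by mean. Ddit4 and Atf4 lie near 46 to 49 CPM per kb on average and Trib3 near 0.134.

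Ulk1OV was first set against WT, to see what that modification changes in mice without the 5xFAD transgenes. Transcripts of Atf4 and Ddit4 fell, to 0.714 and 0.553 of the WT level, and the other 7 tested members did not pass the test. Xbp1 was higher, by a factor of 1.319, at an adjusted p above the threshold. Members called lower were thus 2 of 9, where 3.04% of 17227 genes were called lower, and 0 members were called higher, where 2.14% of genes were. Called means here that the Benjamini-Hochberg adjusted p over all tested genes was under 0.05 in edgeR's quasi-likelihood test, fitted to all 12 libraries. The library labelled 5xFAD;Ulk1OV replicate 3 has a part here only through the shared spread, filter and scaling. Leaving it out gave 3 called members, Xbp1 being the third, where 6.72% of genes were called in either direction.

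Atf4 (ENSMUSG00000042406.8, chr15:80255184-80257541 on GRCm38) had 106, 109 and 118 CPM in WT replicates 1, 2 and 3, and 75.3, 87.4 and 75.2 CPM in those of Ulk1OV. The Ulk1OV libraries all lay below the lowest WT library. The log2 fold change was -0.49 ± 0.11 (SE; edgeR adjusted p = 0.03), from a mean of 111 ± 6.20 CPM to 79.3 ± 7.01 (SD, n = 3 each).

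Ddit4 (ENSMUSG00000020108.4, chr10:59949669-59951834) had 76.8, 91.2 and 132 CPM in WT and 52.2, 70.1 and 43.5 CPM in Ulk1OV. The groups did not overlap, although WT replicate 3 stood far above the other WT libraries. The log2 fold change was -0.85 ± 0.19 (edgeR adjusted p = 0.0299), and without WT replicate 3 it was -0.60 ± 0.17 (edgeR adjusted p = 0.067).

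Xbp1 (ENSMUSG00000020484.18, chr11:5520659-5525893) had 79.1, 71.96 and 73.9 CPM in WT and 90.0, 107.5 and 99.1 CPM in Ulk1OV, again without overlap. Its log2 fold change was 0.40 ± 0.12 (edgeR adjusted p = 0.0658). It was called by DESeq2 (adjusted p = 0.0278), by edgeR on the 6 libraries compared (adjusted p = 0.044) and by edgeR without the library whose label App contradicts (0.39 ± 0.10, adjusted p = 0.0361). Counts per gene do not tell the spliced from the unspliced Xbp1 mRNA.

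The scarcer targets lay lower in Ulk1OV without passing the test. Chac1 had 4.94, 5.83 and 4.37 CPM in WT and 3.68, 3.60 and 2.62 in Ulk1OV (log2 fold change -0.62 ± 0.26, edgeR adjusted p = 0.168). Atf3 had 2.53, 1.91 and 5.16 CPM in WT and 1.44, 1.59 and 1.58 in Ulk1OV (-1.05 ± 0.46, edgeR adjusted p = 0.18), values that rest on 23 to 91 counts per library. Both genes were lower in every Ulk1OV library than in any WT library. Ppp1r15a was also without overlap, at 14.3 to 15.2 CPM in Ulk1OV against 15.5 to 18.3 in WT. In all, 5 members lay wholly lower in Ulk1OV, where 14.5% of all genes did, and 1 wholly higher, where 15% did.

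Asns, Ddit3 and Sesn2 showed overlapping libraries. Asns had 79.5, 91.1 and 86.0 CPM in WT and 83.7, 80.6 and 85.4 in Ulk1OV (log2 fold change -0.04 with a 95% interval of -0.22 to 0.14). Ddit3 had 19.5, 16.3 and 20.8 CPM in WT and 17.9, 23.6 and 20.3 in Ulk1OV (0.13, interval -0.15 to 0.41). It overlaps the gene Mars on the other strand over 4.0% of its exons, and a second entry of its own name on the same strand over 6.1%. Sesn2 had 17.4, 17.4 and 15.4 CPM in WT and 18.3, 12.2 and 12.3 in Ulk1OV (-0.24, interval -0.58 to 0.10). Trib3 was too scarce to be tested, with 4, 10 and 11 counts in WT and 1, 1 and 5 in Ulk1OV. The median log2 fold change of the 9 tested members was -0.24, against 0.003 over all genes.

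**Figure D2:**
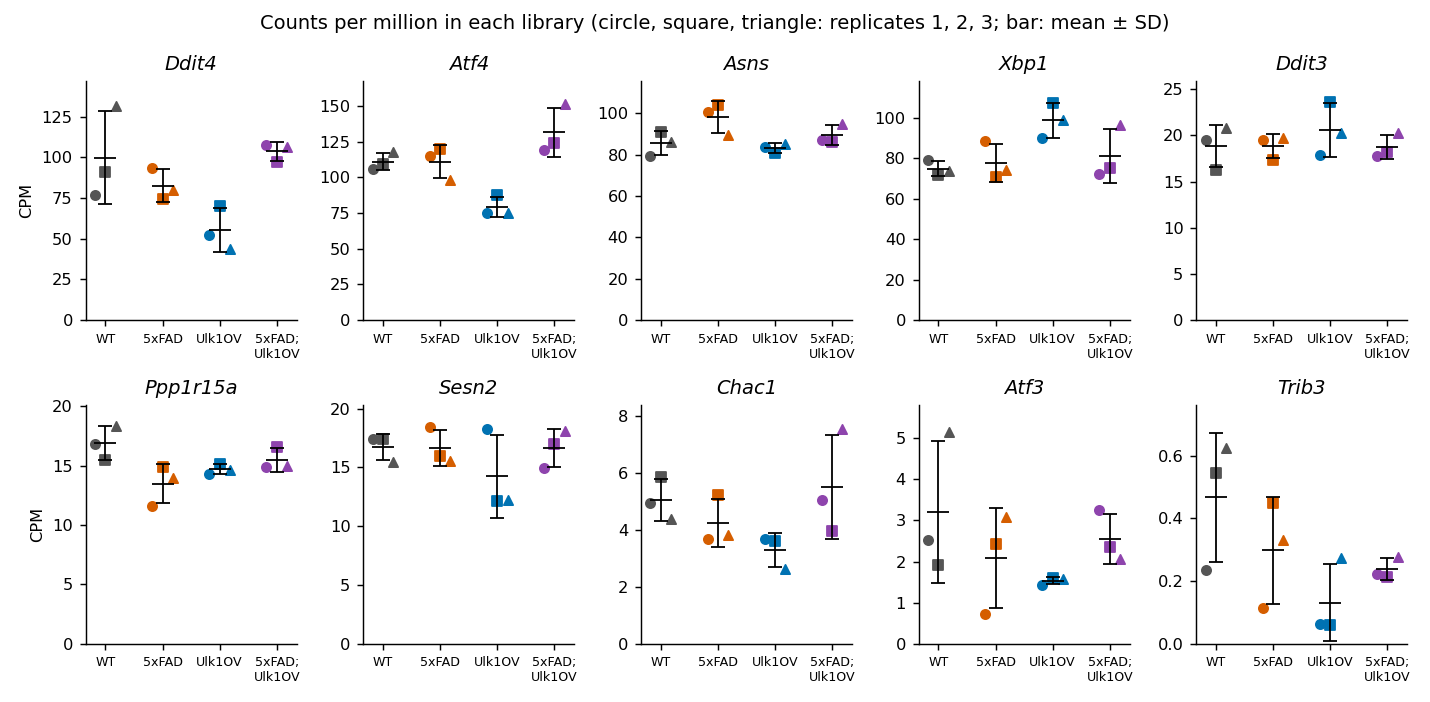
CPM of each gene in each library (circle, square and triangle for replicates 1, 2 and 3) by group, with the mean and SD of 3 libraries as bars. Atf4 and Ddit4 are lowest in the Ulk1OV libraries, and the mean of Xbp1 is highest in that group.

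The calls of Atf4 and Ddit4 in Ulk1OV against WT depended on a correction for GC content and on single libraries. Both transcripts are richer in G and C than most: 55.5% for Atf4 and 57.9% for Ddit4, against a median of 49.6% over tested genes. The trend of all genes over GC content and length put genes like Ddit4 at -0.168 and -0.20 on the log2 scale in Ulk1OV replicates 1 and 3, at 0.014 in replicate 2 and at 0.051 to 0.103 in WT. With an offset for that trend in each library, Atf4 stood at -0.36 ± 0.11 (edgeR adjusted p = 0.0839), Ddit4 at -0.67 ± 0.17 (edgeR adjusted p = 0.0507) and Xbp1 at 0.46 ± 0.11 (edgeR adjusted p = 0.0413), so that Xbp1 was called in place of the other two. Neither Atf4 nor Ddit4 was called when Ulk1OV replicate 1 or 3, or WT replicate 1, 2 or 3, was left out. These losses were not particular to the 2 genes: of all tested genes 891 were called as reported, 620 with the offset, 493 without Ulk1OV replicate 1, 443 without WT replicate 3, and 0 without Ulk1OV replicate 3, WT replicate 1 or WT replicate 2. The log2 fold changes of these fits ran from -0.44 to -0.52 for Atf4 (edgeR adjusted p 0.0652 to 0.153) and from -0.60 to -1.01 for Ddit4 (edgeR adjusted p 0.0644 to 0.154). In a fit of only the 6 libraries compared, Ddit4 was not called either (-0.87 ± 0.22, edgeR adjusted p = 0.0529).

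The comparison of 5xFAD;Ulk1OV with Ulk1OV asked what the 5xFAD transgenes change in mice that also carry Ulk1OV. Atf4 and Ddit4 rose, by factors of 1.659 and 1.876, so that 2 of 9 tested members were called higher, where 3.67% of all genes were. None was called lower, where 2.43% of genes were. This comparison and the one with WT share the Ulk1OV libraries, so opposite signs in them are not independent. Atf4 had 119, 124 and 151 CPM in 5xFAD;Ulk1OV, each above every Ulk1OV library, and its log2 fold change was 0.73 ± 0.11 (edgeR adjusted p = 0.014). Ddit4 had 108, 97.0 and 107 CPM there, likewise above every Ulk1OV library, with a log2 fold change of 0.91 ± 0.19 (edgeR adjusted p = 0.02). Leaving out the library labelled 5xFAD;Ulk1OV replicate 3, which held the highest Atf4 value, gave changes of 0.63 ± 0.10 and 0.90 ± 0.21 (edgeR adjusted p = 0.00789 and 0.024). That omission added Xbp1, called lower at -0.41 ± 0.11 (edgeR adjusted p = 0.0374), so that 3 members were called, where 8.97% of all genes were in either direction.

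The other members were not called between 5xFAD;Ulk1OV and Ulk1OV over all libraries. Xbp1 had 72.3, 75.2 and 96.7 CPM in 5xFAD;Ulk1OV, with the high value in the library labelled replicate 3, and its log2 fold change over all libraries was -0.28 ± 0.12 (edgeR adjusted p = 0.162). Chac1 had 5.03, 3.94 and 7.51 CPM and a change of 0.74 ± 0.26 (edgeR adjusted p = 0.1), which was 0.46 ± 0.25 without the library labelled replicate 3 (edgeR adjusted p = 0.263). Atf3 had 3.24, 2.34 and 2.06 CPM and a change of 0.73 ± 0.46 (edgeR adjusted p = 0.354), or 0.87 ± 0.52 without that library (edgeR adjusted p = 0.298). These values place Chac1 and Atf3 above every Ulk1OV library without a call. In all, 5 members lay wholly higher in 5xFAD;Ulk1OV than in Ulk1OV, where 14.2% of all genes did: Atf4, Ddit4, Chac1, Atf3 and Asns, the last at 86.0 to 95.02 against 80.6 to 85.4 CPM. No member lay wholly lower, where 13.4% of genes did. Sesn2, Ppp1r15a and Ddit3 differed by 0.23, 0.08 and -0.14 on the log2 scale, with intervals of -0.11 to 0.57, -0.19 to 0.34 and -0.42 to 0.14.

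Here too the calls depended on settings. With the GC and length offset Atf4 kept its call (0.57 ± 0.11, edgeR adjusted p = 0.0222) and Ddit4 did not (0.67 ± 0.17, edgeR adjusted p = 0.0542). Neither was called without 5xFAD;Ulk1OV replicate 1 or 2 or without Ulk1OV replicate 3, at edgeR adjusted p of 0.0569 to 0.0922 for Atf4 and 0.0807 to 0.111 for Ddit4. In each of these 3 fits 0 genes of the whole table were called, against 1051 as reported and 507 with the offset. Ddit4 was also lost without Ulk1OV replicate 1 (0.87 ± 0.22, edgeR adjusted p = 0.0588), where 386 genes were called. The log2 fold change in these fits was 0.69 to 0.80 for Atf4 and 0.76 to 0.95 for Ddit4.

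**Figure D3:**
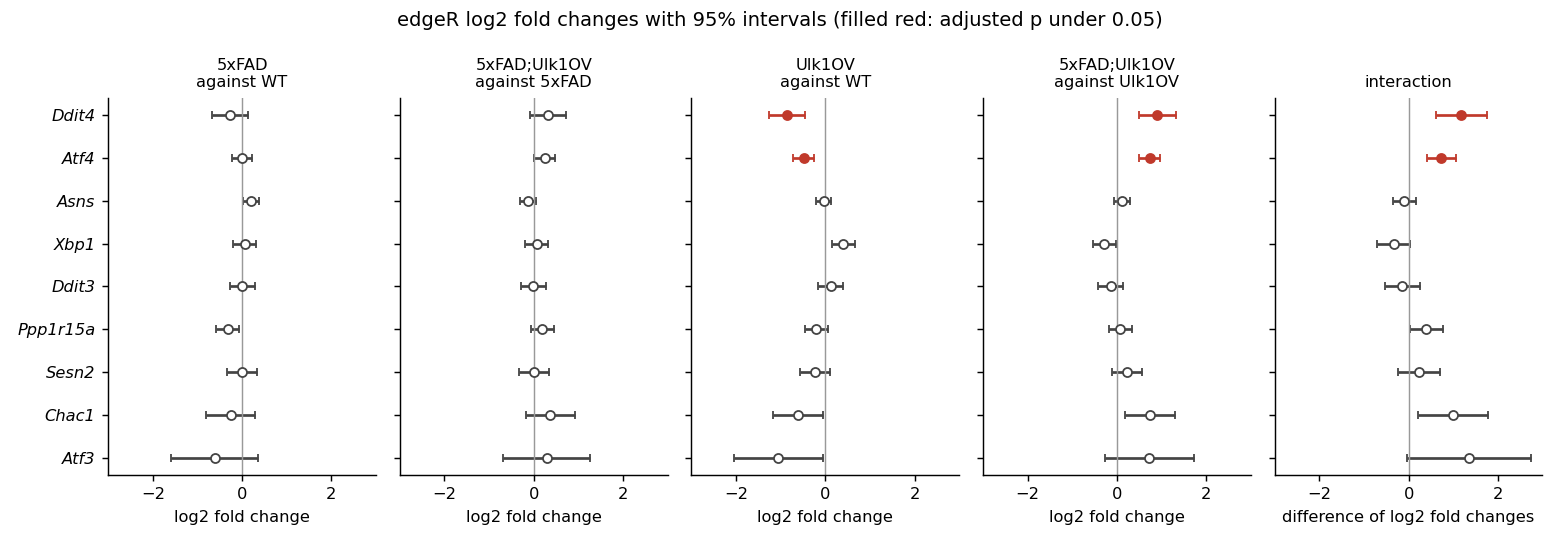
Log2 fold changes of the 9 tested genes from edgeR with 95% intervals in 4 comparisons, and their interaction, on one axis scale. Filled red points passed the adjusted threshold: Atf4 and Ddit4 in Ulk1OV against WT, in 5xFAD;Ulk1OV against Ulk1OV and in the interaction.

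The interaction compared the 5xFAD difference in mice with Ulk1OV with the 5xFAD difference in mice without it. Atf4 and Ddit4 passed it, at 0.73 ± 0.15 and 1.18 ± 0.27 on the log2 scale (edgeR adjusted p = 0.0111 and 0.0151), and the other 7 tested members did not. The background was high: 6.8% of all genes were called in the same direction and 12.8% in either. The 5xFAD difference of Atf4 was -0.002 ± 0.108 on the WT background and 0.73 ± 0.11 on the Ulk1OV background. Ddit4 was -0.27 ± 0.19 on the first and 0.91 ± 0.19 on the second. In CPM, the Ulk1OV group held the lowest mean of both genes and 5xFAD;Ulk1OV the highest, with WT (111 ± 6.20 for Atf4, 99.9 ± 28.4 for Ddit4) and 5xFAD (111 ± 11.5 and 82.6 ± 10.01) between them. For Ddit4 the 5xFAD;Ulk1OV mean, 103.7 ± 5.80, did not differ from that of WT beyond the spread. The highest Ddit4 library was WT replicate 3, at 131.6 CPM.

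Both interaction calls held in each of 12 fits that left out 1 library, at 0.65 to 0.83 for Atf4 (edgeR adjusted p 0.00613 to 0.0367) and 0.93 to 1.41 for Ddit4 (edgeR adjusted p 0.00499 to 0.0443). The fit that omitted 5xFAD;Ulk1OV replicate 3 gave 0.65 ± 0.14 and 1.19 ± 0.29, with 2 members called where 14.4% of genes were. Both calls ended with the GC and length offset, at 0.46 ± 0.15 for Atf4 (edgeR adjusted p = 0.101) and 0.81 ± 0.24 for Ddit4 (edgeR adjusted p = 0.072), with the direction kept, while 956 genes of the table were called, against 2197 as reported. Of the members that were not called, Chac1 had an interaction of 0.99 ± 0.37 (edgeR adjusted p = 0.0913), Atf3 of 1.34 ± 0.65 (edgeR adjusted p = 0.184) and Ppp1r15a of 0.40 ± 0.17 (edgeR adjusted p = 0.14). Xbp1 stood at -0.34 ± 0.17 (edgeR adjusted p = 0.202). Without 5xFAD;Ulk1OV replicate 3 none of these was called either, with Chac1 at 0.73 ± 0.34 and Xbp1 at -0.45 ± 0.15 (edgeR adjusted p = 0.167 and 0.0555). The intervals of Asns (-0.35 to 0.16), Ddit3 (-0.53 to 0.26) and Sesn2 (-0.24 to 0.72) spanned 0.

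**Figure D4:**
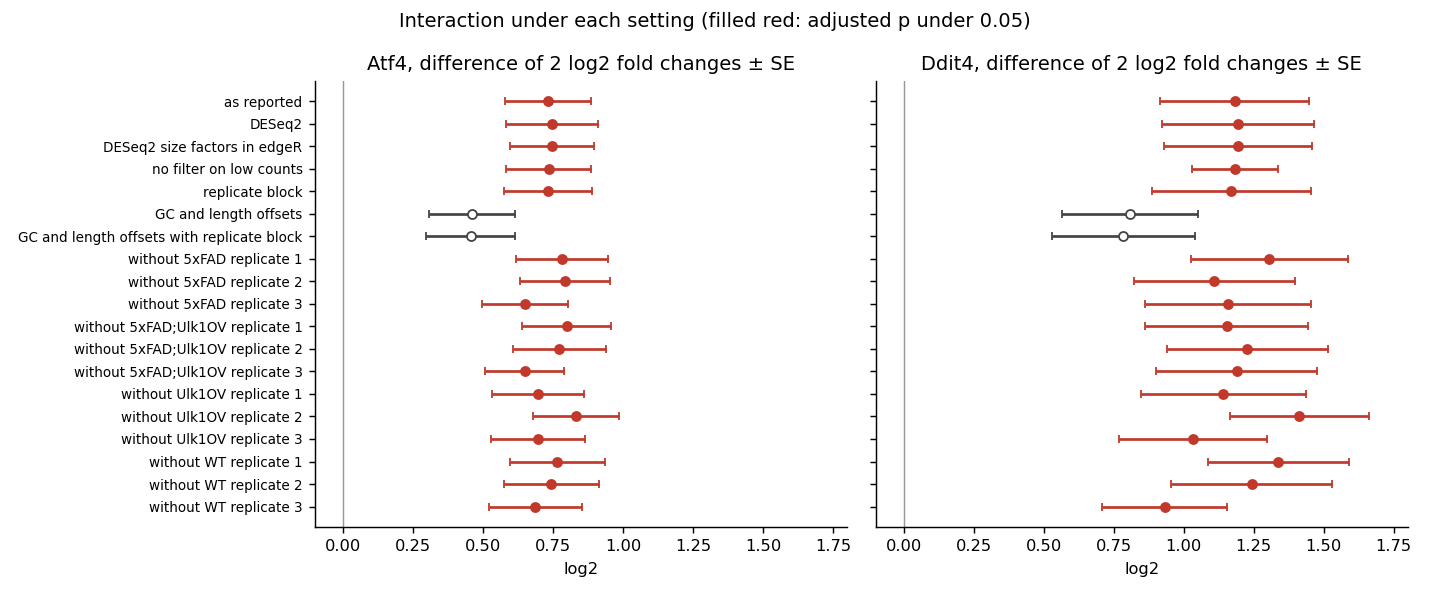
Interaction of Atf4 and Ddit4 (difference of 2 log2 fold changes, with SE) as reported and under each alternative setting. The points with GC and length offsets, open symbols at 0.46 and 0.81 and a little lower with the replicate block, are those that did not pass.

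What the amyloid transgenes change when Ulk1 is not overexpressed was read from 5xFAD against WT. No member was called, nor was any gene of the table (0%), and DESeq2 called 0 members and 0.835% of genes. The fit that omitted 5xFAD;Ulk1OV replicate 3 also called 0 members, and 0.017% of genes. At an unadjusted p under 0.05 edgeR gave 2 of 9 members, where 12.4% of genes reached it. These were Ppp1r15a and Asns. Ppp1r15a had 11.6, 14.9 and 14.0 CPM in 5xFAD, each under the lowest WT library (log2 fold change -0.32 ± 0.12, edgeR adjusted p = 0.315). It was the 1 tested member whose groups did not overlap, where 9.05% of genes were wholly lower and 10.5% wholly higher. Asns had 101, 104 and 89.5 CPM in 5xFAD, and its highest WT library overlapped the lowest of these (0.20 ± 0.08, edgeR adjusted p = 0.353). Atf4 had 115, 120 and 98.0 CPM in 5xFAD and lay on both sides of the WT libraries, with an interval of -0.24 to 0.23. Ddit3 had 19.5, 17.4 and 19.7 CPM, also within reach of WT (interval -0.28 to 0.28). Ddit4 had 93.7, 74.2 and 79.9 CPM, Chac1 3.67, 5.22 and 3.80 and Atf3 0.735, 2.42 and 3.09, all overlapping with WT.

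On the amyloid background the question was what Ulk1OV adds, from 5xFAD;Ulk1OV against 5xFAD. No member was called, against 0.0464% of all genes, and DESeq2 called 0 members and 5.45% of genes. The fit that omitted 5xFAD;Ulk1OV replicate 3 called 0 members and 0.0682% of genes. At an unadjusted p under 0.05 there was 1 member, Atf4, where 17.4% of genes reached it. Its log2 fold change was 0.25 ± 0.11 (edgeR adjusted p = 0.26), and 0.15 ± 0.10 in that fit (edgeR adjusted p = 0.485). Ddit4 was the 1 member whose libraries did not overlap, higher in 5xFAD;Ulk1OV, as were 10.7% of genes, with 11.5% wholly lower (0.33 ± 0.19, edgeR adjusted p = 0.386). Chac1 stood at 0.38 ± 0.26 with that library and at 0.10 ± 0.25 without it (edgeR adjusted p = 0.477 and 0.871). Asns, Sesn2 and Ddit3 had intervals of -0.31 to 0.04, -0.34 to 0.34 and -0.29 to 0.27.

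Lists of other genes of the pathway were read against the share of all tested genes called in either direction, which was 5.17% in Ulk1OV against WT, 6.1% in 5xFAD;Ulk1OV against Ulk1OV and 12.8% in the interaction. A single call in a list of 10 to 15 genes is near the first 2 of these shares and under the third.

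Upstream of ATF4, 15 genes of eIF2 and its control were all tested. The 4 eIF2 kinases were not called in the fit to all 12 libraries, although HRI (Eif2ak1) was called lower without Ulk1OV replicate 2, in 5xFAD;Ulk1OV against Ulk1OV (edgeR adjusted p = 0.0407) and in the interaction (edgeR adjusted p = 0.0264). PERK (Eif2ak3) averaged 22.2 to 24.3 CPM in the 4 groups. In edgeR's fit 1 of the 15 was called in each of 3 comparisons, Eif2s2, the beta subunit of eIF2, a count near or under the background. It rose in Ulk1OV against WT, from 68.6 ± 4.24 to 92.7 ± 7.80 CPM (0.43 ± 0.09, edgeR adjusted p = 0.0287), and fell in 5xFAD;Ulk1OV against Ulk1OV (-0.42 ± 0.09, edgeR adjusted p = 0.0247). Its interaction was -0.65 ± 0.13 (edgeR adjusted p = 0.00989). Without 5xFAD;Ulk1OV replicate 3 the last 2 values were -0.45 ± 0.11 and -0.67 ± 0.14, both called (edgeR adjusted p = 0.0232 and 0.0107). All 3 calls of Eif2s2 ended under the offset (0.24, -0.19 and -0.25; edgeR adjusted p = 0.0839, 0.182 and 0.199). The call against WT was also lost without Ulk1OV replicate 3 or any 1 WT library, and that against Ulk1OV without Ulk1OV replicate 3 or 5xFAD;Ulk1OV replicate 1 or 2.

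Partners and paralogs of the 10 genes formed a list of 9. Atf5, a relative of ATF4 that also acts in mitochondrial stress, had 14.3 ± 3.41 CPM in Ulk1OV and rose to 23.6 ± 1.73 in 5xFAD;Ulk1OV (0.72 ± 0.15, edgeR adjusted p = 0.0198). In the interaction 2 of the 9 were called higher and 1 lower. Atf5 stood at 0.92 ± 0.21 (edgeR adjusted p = 0.0156), Cebpb, a dimer partner of ATF4, at 1.18 ± 0.35 (edgeR adjusted p = 0.0433), and Chac2, a paralog of Chac1, at -0.72 ± 0.17 (edgeR adjusted p = 0.0159). Chac2 thus had the opposite sign to Chac1. No gene of this list was called with the GC and length offset, where the 3 interactions were 0.36, 0.34 and -0.35. The rise of Atf5 against Ulk1OV was not called without Ulk1OV replicate 1 or 3 or 5xFAD;Ulk1OV replicate 1 or 2 (edgeR adjusted p up to 0.107). Without 5xFAD;Ulk1OV replicate 3 it was 0.74 ± 0.17 (edgeR adjusted p = 0.0212), and Cebpb was called there as well (1.11 ± 0.24, edgeR adjusted p = 0.0174), with 3 of the 9 called in that comparison and 4 in the interaction. The Atf5 and Chac2 interactions were called in all 12 fits with 1 library left out, and that of Cebpb in 4.

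Among ATF4 targets of amino acid supply, Slc7a11, the cystine carrier that feeds glutathione synthesis, was called in the same comparisons and directions as Atf4 and Ddit4, and its calls held under the GC and length offset. Its mean was 78.8 ± 14.6 CPM in WT and 46.2 ± 3.70 in Ulk1OV, with 60.4 ± 8.54 in 5xFAD and 70.4 ± 14.2 in 5xFAD;Ulk1OV (SD, n = 3 each). It fell in Ulk1OV against WT (-0.77 ± 0.16, edgeR adjusted p = 0.0271) and rose in 5xFAD;Ulk1OV against Ulk1OV (0.61 ± 0.16, edgeR adjusted p = 0.0393), with an interaction of 0.99 ± 0.22 (edgeR adjusted p = 0.0142). With the offset these were -0.94 ± 0.17, 0.85 ± 0.17 and 1.43 ± 0.24 (edgeR adjusted p = 0.0179, 0.0233 and 0.00694). The interaction was called in all 12 fits with 1 library left out, the fall against WT in 9 (not without Ulk1OV replicate 3 or WT replicate 1 or 2) and the rise against Ulk1OV in 6 (not without any 1 Ulk1OV library, 5xFAD;Ulk1OV replicate 1 or 2, or WT replicate 1, at edgeR adjusted p of up to 0.179). Without 5xFAD;Ulk1OV replicate 3 the rise was 0.71 ± 0.17 and the interaction 1.11 ± 0.23 (edgeR adjusted p = 0.0247 and 0.00994). Slc7a11 was the 1 of 10 carrier genes called in each of these comparisons, and all 10 had negative log2 fold changes in Ulk1OV against WT (median -0.21, against 0.003 over all genes).

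Few other targets were called. Of 12 genes of amino acid synthesis 1, Pck2, the mitochondrial enzyme that makes phosphoenolpyruvate, was called in the interaction (0.64 ± 0.19, edgeR adjusted p = 0.0464), and not with the offset (0.63 ± 0.19, edgeR adjusted p = 0.0698) or in 8 of 12 fits with 1 library left out. Without 5xFAD;Ulk1OV replicate 3, Pck2 (0.77 ± 0.19, edgeR adjusted p = 0.0196) and, with the opposite sign, Gpt2, an alanine aminotransferase (-1.03 ± 0.22, edgeR adjusted p = 0.0119), were called in the interaction. The same 2 genes were called there against Ulk1OV, at 0.48 ± 0.14 and -0.79 ± 0.17 (edgeR adjusted p = 0.0496 and 0.0174). Of 13 tRNA synthetase and tRNA export genes 0 were called in each of the 5 comparisons, by edgeR, by DESeq2 and with the offset. Of 13 tested genes from a list of 15 further targets of ATF4 and CHOP, Bbc3 (PUMA, which promotes apoptosis) rose in 5xFAD;Ulk1OV against Ulk1OV, from 4.15 ± 1.001 to 8.05 ± 2.11 CPM (0.96 ± 0.24, edgeR adjusted p = 0.0337), and Nupr1, a stress-induced chromatin protein, was called in the interaction (2.11 ± 0.59, edgeR adjusted p = 0.0333). With the offset Bbc3 stood at 0.46 ± 0.20 (edgeR adjusted p = 0.229) and Nupr1 at 2.10 ± 0.60 (edgeR adjusted p = 0.0578), and Bbc3 lost its call in 5 and Nupr1 in 8 of 12 fits with 1 library left out. They stood at 1.13 ± 0.24 and 2.52 ± 0.45 without 5xFAD;Ulk1OV replicate 3 (edgeR adjusted p = 0.017 and 0.0058). Bbc3 was then also called in the interaction (1.13 ± 0.33, edgeR adjusted p = 0.0377). In that fit 2 genes of the list were called higher in each of these 2 comparisons. Gdf15 and Fgf21, which encode secreted stress signals, had at most 10 and 1 counts in a library and were not tested.

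Chaperones and sensors of the endoplasmic reticulum, which work with ATF6 and XBP1, formed a list of 21. Of these 9 rose and 0 fell in Ulk1OV against WT (median 0.46, with 18 positive and 3 negative log2 fold changes), and 5 fell and 0 rose in 5xFAD;Ulk1OV against Ulk1OV (median -0.37, with 3 positive and 18 negative). Hsp90b1, a lumenal chaperone, had 310 ± 19.1 CPM in Ulk1OV against 183 ± 14.9 in WT, and Manf, a secreted stress protein, 60.3 ± 3.52 against 35.7 ± 1.33. Xbp1 had the same sign as these genes without a call. The count of 9 became 0 without Ulk1OV replicate 3, WT replicate 1 or WT replicate 2, and that of 5 became 0 without Ulk1OV replicate 3 or 5xFAD;Ulk1OV replicate 1 or 2, fits in which 0 genes of the whole table were called. With the GC and length offset the counts were 6 and 3, and without 5xFAD;Ulk1OV replicate 3 they were 10 and 9. In the interaction 5 of the 21 were called lower and 0 higher, where 12.8% of all genes were called in either direction. Without 5xFAD;Ulk1OV replicate 3 the interaction gave 8 lower. Atf6 had an interaction of -0.63 ± 0.14 (edgeR adjusted p = 0.0132), called in all 12 fits with 1 library left out. With the offset it stood at -0.39 ± 0.10 (edgeR adjusted p = 0.0449). The interactions of Dnajb9, Canx, Pdia3 and Hsp90b1 lost their calls with the offset.

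Other genes that respond to hormones and firing were set beside Ddit4, which glucocorticoids and low energy also induce. Of 10 glucocorticoid targets 1, Mt1, a metallothionein, was called, higher in Ulk1OV than in WT (0.68 ± 0.16, edgeR adjusted p = 0.0325) and lower in 5xFAD;Ulk1OV than in Ulk1OV (-0.63 ± 0.16, edgeR adjusted p = 0.0347), the opposite signs to Ddit4. Of its 12 fits with 1 library left out, 8 and 7 kept these calls, and with the offset its interaction was -1.26 ± 0.20 (edgeR adjusted p = 0.00639). The list had, without 5xFAD;Ulk1OV replicate 3, 1 call in the first comparison and 3, all lower, in the second. Without the filter on low counts it had 8 and 7 calls, where 2079 and 2097 genes of the table were called, against 891 and 1051 as reported. Summed over the list, the level was 835 to 1464 CPM in WT, with the highest in replicate 3, the library with the most Ddit4, and 1290 to 1637 in Ulk1OV, the group with the least Ddit4. It was 1250 to 1408 CPM in 5xFAD and 917 to 1407 in 5xFAD;Ulk1OV. Mt1 was the most abundant gene of the list. Of the 10, 7 were higher and 3 lower in Ulk1OV than in WT. In 5xFAD;Ulk1OV 2 were higher and 8 lower than in Ulk1OV. Per1 had the signs of Ddit4 without a call (-0.34 and 0.29, edgeR adjusted p = 0.1 and 0.148). The part of this list in the Ddit4 result was not tested. Of 13 activity-dependent genes, 10 fell in Ulk1OV against WT (median -1.11), 4 rose in 5xFAD;Ulk1OV against Ulk1OV and 9 were called higher in the interaction. Their summed level was 408 to 511 CPM in Ulk1OV, 780 to 928 in WT, 586 to 682 in 5xFAD and 564 to 760 in 5xFAD;Ulk1OV. With the GC and length offset these counts were 6, 0 and 5, and without 5xFAD;Ulk1OV replicate 3 they were 11, 6 and 10. The first was 0 without Ulk1OV replicate 3 or WT replicate 1 or 2, and the second 0 without Ulk1OV replicate 3 or 5xFAD;Ulk1OV replicate 1 or 2, where no gene of the table was called. Their part in the Atf4 and Ddit4 results was not tested.

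Markers of other cells that a hippocampal dissection can hold were called in part. In bulk RNA, fewer cells of a type and less RNA per cell cannot be told apart. Of 8 markers of meningeal and perivascular fibroblasts 6 fell in Ulk1OV against WT, among them the collagen gene Col1a1 (-1.89 ± 0.42, edgeR adjusted p = 0.0299), and 5 rose in 5xFAD;Ulk1OV against Ulk1OV (6 without 5xFAD;Ulk1OV replicate 3). Dcn, the most abundant of them, had 71.1 ± 21.6 CPM in WT and 71.5 ± 34.4 in Ulk1OV. The sum of the 8 was 118 to 158 CPM in Ulk1OV, 221 to 325 in WT, 108 to 208 in 5xFAD and 152 to 337 in 5xFAD;Ulk1OV. Of the 8, 7 were lower and 1 higher in Ulk1OV than in WT (median log2 fold change -1.81). Of 8 endothelial markers, of which Flt1 was the most abundant, 2 fell in Ulk1OV against WT. In 5xFAD;Ulk1OV against Ulk1OV 0 were called, and 1, higher, without 5xFAD;Ulk1OV replicate 3. The endothelial sums were 48.2 to 62.0 CPM in Ulk1OV and 57.3 to 83.9 in WT. Of the 10 choroid plexus markers, of which Ttr was the most abundant, 0 were called in any of the 5 comparisons. Their sum reached 6347 CPM in WT replicate 3 and 4284 in Ulk1OV replicate 1, with at most 343.4 elsewhere. WT replicate 3 was the WT library with the most Ddit4 and Atf3. Ulk1OV replicate 1 held the least Atf3 of its group (1.44 CPM) and the middle Ddit4 value (52.2 CPM). In Ulk1OV against WT 0 of the 7 astrocyte, 7 oligodendrocyte, 7 microglial and 8 hippocampal neuron markers were called, and 1 of 7 pan-neuronal markers fell. Against Ulk1OV, 1 microglial marker was called lower in 5xFAD;Ulk1OV, and 1 higher instead without 5xFAD;Ulk1OV replicate 3. In the interaction 6 fibroblast and 4 endothelial markers were called higher, where 6.8% of all genes were. Of the microglial and of the pan-neuronal markers, 1 each was called higher and 1 lower there. The astrocyte, oligodendrocyte and hippocampal neuron lists had 0 interaction calls. The interaction counts were the same without 5xFAD;Ulk1OV replicate 3. No marker of these lists was at 0 in all libraries. Mitochondrially encoded genes took 6.396% to 8.758% of counts in Ulk1OV, 5.049% to 5.422% in WT, 5.524% to 6.982% in 5xFAD and 4.035% to 5.966% in 5xFAD;Ulk1OV. The part of these markers in the results was not tested.

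Across the 12 libraries, the tested genes whose level was most like that of Atf4 were Chtop (Pearson r = 0.952), Stard3nl (0.939), Scrib (0.935), Psmd13 (0.926) and Pim3 (0.923), on log2 CPM with a prior count of 2. The libraries share their groups and their GC trends, so these values are a description. Among the members Ddit4 was nearest (r = 0.851, rank 44 among tested genes), followed by Chac1 (0.781, rank 211), Asns (0.505) and Sesn2 (0.477). Atf3 stood at 0.309 and Ppp1r15a at 0.171, while Ddit3 (-0.191) and Xbp1 (-0.414) had negative values.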

How the data were processed

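The authors deposited 1 table of unnormalized read counts, with a row per gene and a column for each of 12 libraries. The submitters' processing notes name FastQC, Trim Galore, HISAT2, SAMtools, featureCounts, DESeq2 and mm10. The sources used here give no version, annotation or strand setting, so overlapping genes such as Ddit3 are uncertain. Libraries held 16149992 to 18547132 counts.

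In R 4.3.3, the default low-count filter of edgeR 4.0.16 left 17227 genes, and libraries were scaled by TMM before a fit with 1 mean per group. SE is the log2 fold change over the square root of F. The exact permutation test of 3 against 3 was not used, since it cannot reach the threshold. Positions, exon lengths and GC content come from GENCODE M21 (GRCm38). The offset removes each library's loess trend (span 0.4) over GC content and length, for 17111 genes (99.3%).

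The members, the lists (9 of pathways, 8 of markers) and the offset were chosen with earlier results of these data known. All members were named, with up to 3 genes of smallest p per list and comparison and all called genes where 5 or fewer were, of which the text gives those that a result turns on, and the 5 genes most like Atf4. Eif2ak3, Gdf15 and Fgf21 fall outside this rule and were chosen after their values were seen. Alternatives were DESeq2 1.42.0, its size factors, no filter, a replicate block, only 6 libraries, each library left out and the offset. Those for the pathway lists were chosen after seeing the data. The edgeR fit was tested on simulated data.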

Additional observations from a re-analysis of the deposited data

Results flagged for a closer look

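The 5xFAD difference of Atf4 and of Ddit4 was not the same with and without Ulk1OV, by the interaction in edgeR's test over all genes. For Atf4 the interaction was 0.732 on the log2 scale (edgeR adjusted p = 0.0111), and all 3 libraries of 5xFAD;Ulk1OV lay above all 3 of Ulk1OV, while 5xFAD and WT overlapped. For Ddit4 it was 1.182 (edgeR adjusted p = 0.0151), with the same pattern of overlap. Of all genes 14.2% lay wholly higher in 5xFAD;Ulk1OV than in Ulk1OV. In 5xFAD against WT 10.5% lay wholly higher and 9.05% wholly lower. These overlaps include 5xFAD;Ulk1OV replicate 3, whose 5xFAD label App contradicts and which held the highest Atf4 value. Without that library the interactions were 0.648 and 1.19 (edgeR adjusted p = 0.0117 and 0.0189). The share of all genes called higher in the interaction over all libraries was 6.8%, and the offset for GC content and length ended both calls, as given in the report.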

How the results depend on the processing

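Over all alternatives run, no member called as reported changed sign. Of the single-member values under alternatives, 764 kept their sign and their side of the threshold, 28 lost and 9 gained a call, and 44, of members not called, changed sign. The count of members called was 2 in Ulk1OV against WT, 4 without the filter on low counts, 1 with GC and length offsets and 1 with these offsets and the replicate block, and 0 to 3 with 1 library left out, while the count over all genes was 891, 2079, 620, 621 and 0 to 1294. In 5xFAD;Ulk1OV against Ulk1OV the count of 2 became 1 with the offsets, 1 with the offsets and the replicate block, and 0 to 3 with 1 library left out, where all genes gave 1051, 507, 446 and 0 to 1629. In the interaction the count of 2 became 0 with the offsets, 0 with the offsets and the replicate block (Atf4 0.46, Ddit4 0.79; edgeR adjusted p = 0.123 and 0.101), and stayed at 2 with each library left out, where all genes gave 2197, 956, 848 and 974 to 2596. The cause was not tested.

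Replicate numbers shared by the groups gave no sign of pairing: correlations of same-numbered deviations ran from -0.183 to 0.159. Those of differently numbered ones ran from -0.162 to 0.222. With 3 libraries per group this cannot exclude pairing. The replicate block alone gave counts of 0 in both comparisons without a called member, and 2 in each of the other 3, and changed no call of a member. With it, 8 endoplasmic reticulum genes in place of 5 were called in 5xFAD;Ulk1OV against Ulk1OV. Over all genes the counts without the filter were 551 in 5xFAD against WT (0 as reported), 901 in 5xFAD;Ulk1OV against 5xFAD (8), 2097 in 5xFAD;Ulk1OV against Ulk1OV and 2837 in the interaction. Depth limits Trib3 (1 to 11 counts) and Atf3 most.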
